A study of Homo sapiens with 4 samples.

Results

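POLQ, PARP1, PARP2, PARP3, PARG, LIG3, XRCC1 and APTX are 8 genes of single-strand break repair and polymerase theta mediated end joining, and they were followed here in OVCAR3 cells, an established line of high-grade serous ovarian carcinoma. They were picked by gene symbol from the 60605 genes of the annotation, each symbol matched 1 gene, and the FPKM (a fragment count divided by transcript length in kilobases and by the library's mapped total) of all transcripts of a gene were added within each library. All 8 passed the level filter, a mean of at least 0.1 FPKM, which left 22185 genes for testing. The etoposide group held 2 biological replicates of cells given 1.7 µM etoposide, an inhibitor of topoisomerase II, for 24 h, and the DMSO group held 2 biological replicates given the vehicle. Cells of both groups had first been held for 16 h in nocodazole at 100 ng/mL, an inhibitor of microtubule assembly, then washed in PBS and left for 3 h in fresh medium, so that the controls had also passed through a mitotic block. The replicates come from a single cell line, so the spread between them is that of repeated cultures.

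Single-strand breaks are found by the enzymes PARP1 and PARP2, which use NAD to build chains of ADP-ribose on themselves and on chromatin proteins near the break. XRCC1 is a scaffold that is drawn to these chains and brings in the DNA ligase LIG3 and enzymes that clean the broken ends, among them aprataxin (APTX), which removes AMP left by an aborted ligation, while PARG cuts the chains down again. PARP3 adds mono-ADP-ribose and acts mainly at double-strand breaks. POLQ, polymerase theta, joins resected double-strand breaks by pairing short homologies and filling in from them, and PARP1, LIG3 and XRCC1 have each been linked to that route as well. Etoposide leaves topoisomerase II covalently bound at broken DNA, and the comparison asks how the transcripts of these genes stood after a day of it.

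In the deposited coordinates of GRCh38, POLQ spanned chr3:121431431-121545988 on the minus strand, PARP1 chr1:226360210-226408154 on the minus strand, PARP2 chr14:20343615-20357904 on the plus strand and PARP3 chr3:51942345-51948867 on the plus strand. PARG spanned chr10:49818279-49970203 on the minus strand, LIG3 chr17:34980512-35009743 on the plus strand, XRCC1 chr19:43543311-43580473 on the minus strand and APTX chr9:32886601-33025130 on the minus strand. The promoters of POLQ, PARP1 and XRCC1 are shown because these 3 genes gave the largest difference, a smaller one in the same direction and one in the other direction. They run from 250 bases before to 50 bases after the start of transcription in RefSeq (GRCh38.p14), and capitals mark matches on either strand to TTTGAA, the core of the cell cycle element CHR, and to TTCCCGC, a core of E2F sites.
POLQ (chr3:121545939-121546238, minus strand): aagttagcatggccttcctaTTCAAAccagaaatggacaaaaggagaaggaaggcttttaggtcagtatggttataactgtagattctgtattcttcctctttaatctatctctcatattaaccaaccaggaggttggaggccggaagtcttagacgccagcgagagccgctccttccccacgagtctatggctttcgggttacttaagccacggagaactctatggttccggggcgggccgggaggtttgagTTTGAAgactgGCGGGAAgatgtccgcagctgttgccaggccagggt
PARP1 (chr1:226408044-226408343, minus strand): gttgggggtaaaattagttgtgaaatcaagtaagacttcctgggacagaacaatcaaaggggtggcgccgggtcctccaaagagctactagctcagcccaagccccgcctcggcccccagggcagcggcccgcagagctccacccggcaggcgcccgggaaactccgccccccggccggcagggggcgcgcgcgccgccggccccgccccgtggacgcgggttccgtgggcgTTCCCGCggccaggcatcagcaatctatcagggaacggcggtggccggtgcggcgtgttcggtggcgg
XRCC1 (chr19:43575478-43575777, minus strand): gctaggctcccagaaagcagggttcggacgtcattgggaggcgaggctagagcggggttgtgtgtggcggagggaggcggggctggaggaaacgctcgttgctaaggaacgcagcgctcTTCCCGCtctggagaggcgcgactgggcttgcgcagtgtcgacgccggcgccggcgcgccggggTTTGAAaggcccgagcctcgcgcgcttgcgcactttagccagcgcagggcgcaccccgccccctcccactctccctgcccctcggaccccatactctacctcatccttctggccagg
In POLQ, a TTTGAA lay at bases 4 to 9 from the start and a TTCCCGC, on the other strand, at bases 15 to 21, both within the first exon of its main transcript, and a further TTTGAA on the other strand lay at -230 to -225. XRCC1 also held both, at -67 to -62 and -131 to -125, whereas PARP1 held only TTCCCGC, at -18 to -12. No match to one motif overlapped a match to the other. Of 34943 RefSeq promoters of the same 300 bases, 15.2% held TTTGAA on either strand, 6.54% held TTCCCGC and 0.538% held both. PARP2 and PARG each held 1 TTCCCGC and no TTTGAA, the upstream of the 2 annotated starts of APTX held 1 TTCCCGC, and PARP3, LIG3 and the other start of APTX held neither. The pair of motifs was thus present in POLQ and in XRCC1. A match in this window is a description of letters, not of a bound site, and its part in the differences was not tested.

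The libraries held 47687126 and 58513480 mapped read pairs in etoposide cells, and 64473397 and 66500749 in DMSO cells, as implied by the deposited FPKM and coverage for pairs of 200 bases. All 10 fixed epithelial and serous carcinoma markers were at 1 FPKM or more in every library, with KRT8 the highest. Their summed level was 2127 and 2197 FPKM in etoposide cells, against 3040 and 2701 FPKM in DMSO cells. KRT8 and KRT18 made up most of this sum, and the markers did not move together. PAX8, MUC16, KRT7, KRT8, KRT18 and MSLN were lower in both etoposide libraries. EPCAM and CCNE1 were higher in both, and WT1 and CDH1 overlapped. Of the markers of other cell types, 2 of 6 for fibroblasts, 1 of 4 for endothelium, 1 of 3 for mesothelium and 0 of 5 for leukocytes were at 1 FPKM or more in every library, with COL1A1 up to 6.11 FPKM, KDR up to 5.01, UPK3B up to 2.73 and the leukocyte marker CD14 up to 1.02. The fibroblast markers summed to 8.40 and 8.18 FPKM in etoposide cells and 6.93 and 6.99 FPKM in DMSO cells, and the sums of the other lists overlapped between the groups or stayed under 2 FPKM. The fibroblast sum was mostly COL1A1, which with PDGFRB was higher in both etoposide libraries, whereas COL1A2 and LUM were lower in both. PTPRC, CD3E, PECAM1, CDH5, COL3A1, DCN and CALB2 were under 0.1 FPKM in all 4 libraries. DMSO replicate 1 stood apart in coverage along transcripts. Coverage was given as 1 mean for each exon. A stretch of bases therefore takes the means of its exons, weighted by their bases within it. Over 4454 genes with a main transcript of at least 4000 bases, the median log2 ratio of coverage in the first 1000 bases to that in the last 1000 was -0.02 and -0.03 in the etoposide libraries, and -0.38 in DMSO replicate 1 and -0.01 in DMSO replicate 2. The differences of the 8 genes and the medians of the gene groups around them are therefore also given without DMSO replicate 1. No gene reached an adjusted p under 0.05 (limma on log2(FPKM + 0.1), Benjamini-Hochberg over 22185 genes; 0 called, 0%), the smallest adjusted p was 0.169, and 2643 genes had an unadjusted p under 0.05. For any one gene, an exact permutation test of 2 libraries against 2 reaches a p of 0.333 at the least.

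The 8 genes differed widely in level. PARP1 was the most abundant, averaging 95.2 ± 1.37 FPKM in etoposide cells and 84.3 ± 6.65 FPKM in DMSO cells (SD, n = 2 each, as for all means below), and 97.4% of the genes tested had a lower mean level. PARP2 and APTX followed at means over all 4 libraries of 36.5 and 25.6 FPKM, then XRCC1 at 15.5 FPKM. POLQ at 5.87, PARG at 5.34 and LIG3 at 4.05 FPKM lay close together, and PARP3 was the lowest at 1.22 FPKM. The order of POLQ, PARG and LIG3 depended on the library: POLQ exceeded PARG in both etoposide libraries, at 1.28 and 1.24 times its FPKM, whereas it stood at 0.806 and 1.00 times in the DMSO libraries. Relative to LIG3, POLQ stood at 1.84 and 1.75 times in etoposide cells and at 0.924 and 1.28 times in DMSO cells.

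The etoposide libraries lay wholly above the DMSO libraries for 6 of the 8 genes, as they did for 28.9% of all genes tested, and wholly below for 1 of the 8, as for 19% of all genes tested. For LIG3 the groups overlapped. The fitted log2 fold change was above 0 for 6 genes, against 56.2% of all genes tested, and the median of the 8 was 0.19, against 0.04 over all genes tested. None of the 8 passed the test over all genes. POLQ and PARP2 had an unadjusted p under 0.05 in the direction of etoposide, which 7.06% of all genes tested had.

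**Figure D1:**
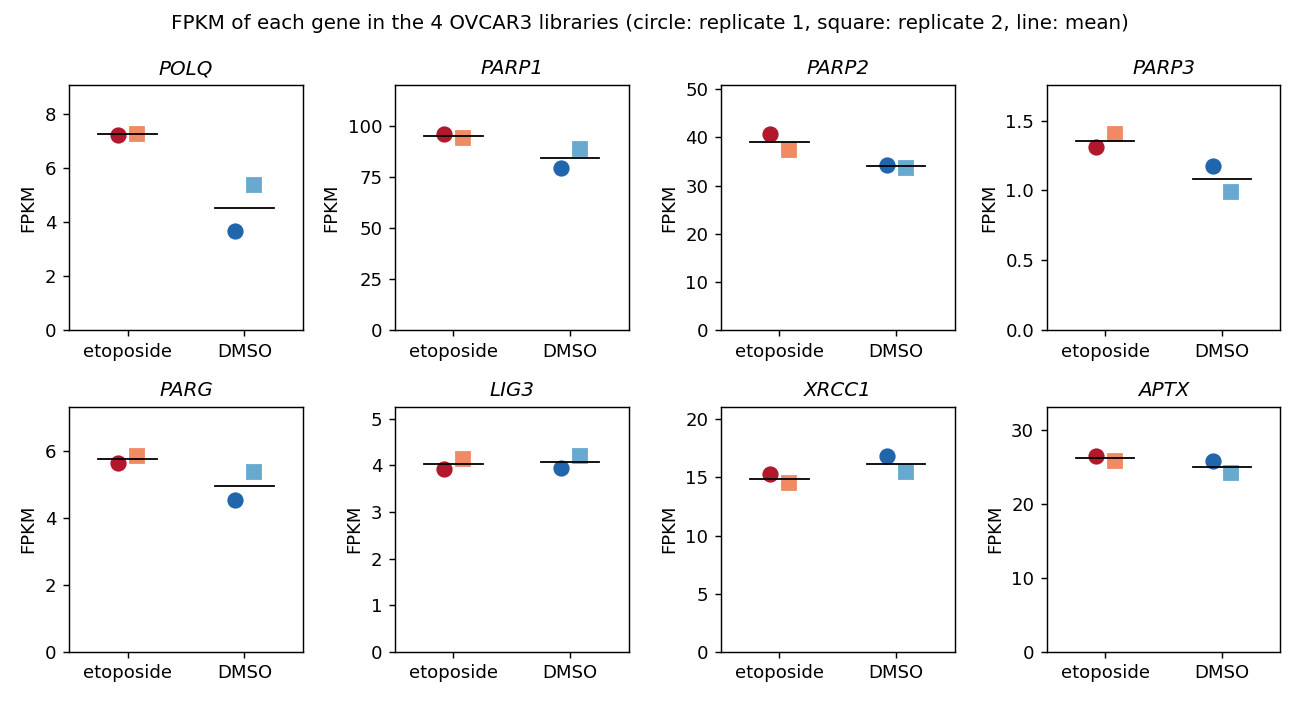
FPKM of the 8 genes in the etoposide libraries (left in each panel) and the DMSO libraries (right), on linear axes from 0, with circles for replicate 1, squares for replicate 2 and a line at each group's mean. Relative to its level, POLQ shows the widest gap, with etoposide libraries at 7.21 and 7.25 FPKM, and the widest spread between its DMSO libraries, at 3.65 and 5.38 FPKM.

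POLQ (ENSG00000051341) measured 7.21 and 7.25 FPKM in etoposide cells, against 3.65 and 5.38 FPKM in DMSO cells. The etoposide replicates were nearly equal and both above the DMSO replicates, which differed from each other by 0.55 on the log2 scale. Group means were 7.23 ± 0.03 FPKM in etoposide cells and 4.51 ± 1.22 FPKM in DMSO cells, a ratio of 1.60. The log2 fold change was 0.69 ± 0.19 (SE), with an unadjusted p of 0.0099 and an adjusted p of 0.336 by limma over all genes. Only 509 of the 22185 genes tested had a larger log2 fold change, and it was not called. Without DMSO replicate 1 the log2 fold change was 0.42, with an adjusted p of 0.179, whereas without DMSO replicate 2 it was 0.97, with an adjusted p of 0.033, past the threshold, as for 6.06% of all genes tested in that fit. In size, the difference from DMSO replicate 1 was 1.98-fold and that from DMSO replicate 2 was 1.34-fold. The study chose POLQ from these libraries as a differentially expressed gene by DESeq2, a test on counts. It then measured POLQ by quantitative PCR and reported it as upregulated after etoposide. As the study chose POLQ on the strength of these libraries, its position here is not independent evidence of a change.

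The coverage along POLQ showed where the DMSO libraries parted. Its canonical transcript ENST00000264233, of 8757 bases in 30 exons and coding for 2590 residues, held 97.8% of its mean FPKM, so almost all reads were given to 1 form. Exon coverage was scaled in each library by the factor that turns coverage into FPKM. In the first exon, scaled coverage was 2.97 and 2.75 in etoposide cells, against 0.713 in DMSO replicate 1 and 2.57 in DMSO replicate 2. In exon 16, which at 3107 bases is the longest, it was 6.93 and 6.78 in etoposide cells, against 2.76 and 5.16 in DMSO replicates 1 and 2. In the last exon, of 987 bases, it was 8.61 and 8.40 in etoposide cells, against 6.78 and 5.49 in DMSO replicates 1 and 2. DMSO replicate 1 was thus the lower of the DMSO libraries at the 5′ end and the higher at the 3′ end, and the etoposide libraries were above both at either end. Etoposide coverage was wholly above DMSO coverage in 29 of the 30 exons, the exception being exon 12, and its mean log2 level was above DMSO replicate 2 in all 30, by 0.02 to 0.69 with a median of 0.40. The exons share their reads' libraries and are not replicates.

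**Figure D2:**
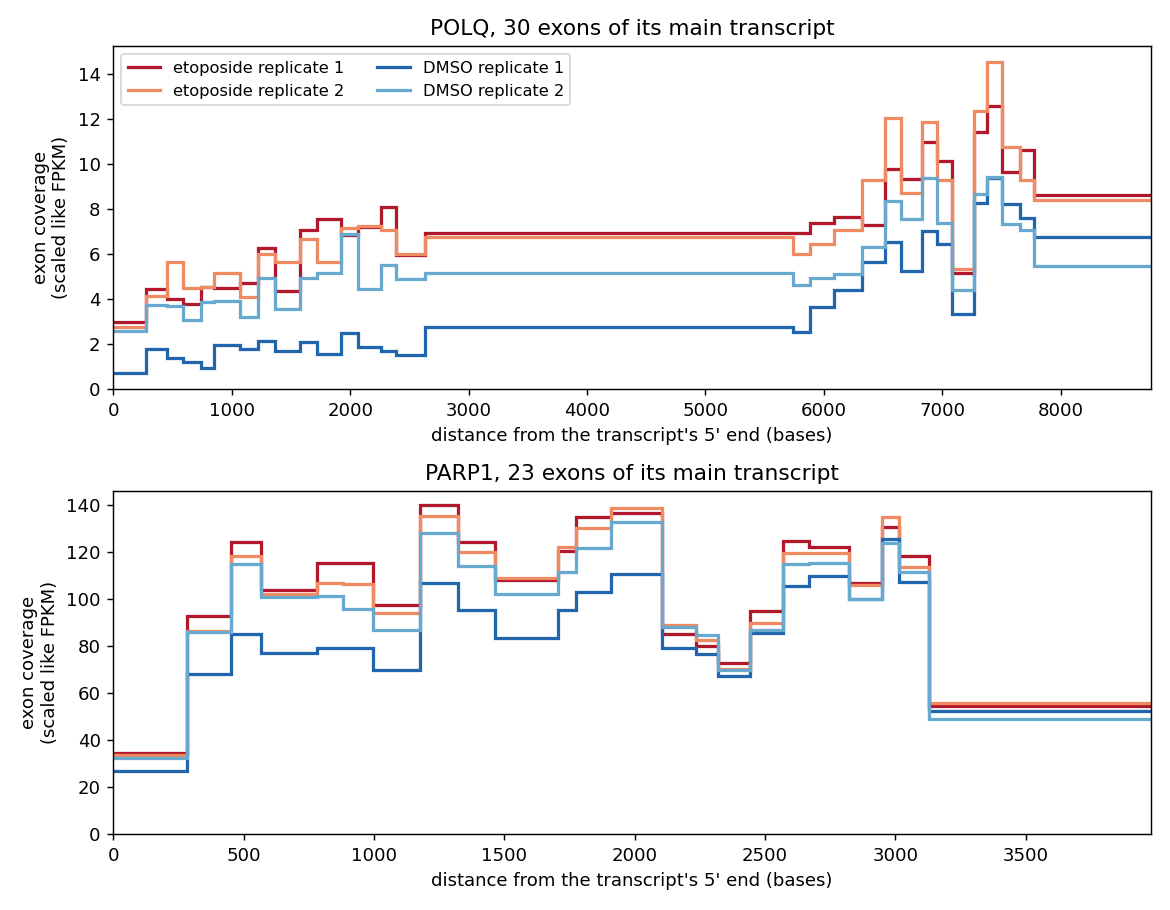
Exon coverage of the main transcripts of POLQ (top) and PARP1 (bottom), scaled like FPKM, against the distance from the 5′ end in bases, with 1 line for each library. In POLQ, DMSO replicate 1 runs far below the other libraries over the 5′ exons, at 0.713 in the first, and lies above DMSO replicate 2 in the last, at 6.78 against 5.49.

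Over the last 1000 bases of that transcript, an alternative measure added once this coverage had been seen, POLQ stood at 8.63 and 8.41 in etoposide cells, against 6.79 and 5.51 in DMSO cells. The log2 difference was 0.47 with all libraries and 0.62 without DMSO replicate 1, with adjusted p of 0.625 and 0.602 by limma. Over the first 1000 bases it stood at 3.89 and 4.21 in etoposide cells, against 1.27 and 3.35 in DMSO cells, a log2 difference of 0.93, or 0.26 from DMSO replicate 2 alone. The ratio of first to last 1000 bases was 0.451 and 0.500 in etoposide cells, against 0.188 and 0.608 in DMSO cells, so the DMSO libraries lay on either side of the etoposide libraries. When each library's log2 values were also corrected for transcript length and GC content, the log2 fold change of POLQ was 0.48, with an adjusted p of 0.133. The etoposide mean of POLQ was above the DMSO mean in all of these, at log2 fold changes of 0.42 to 0.97 over 16 alternatives. The part that the low 5′ coverage of DMSO replicate 1 had in the difference was not tested.

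PARP1 (ENSG00000143799), the main maker of ADP-ribose chains at breaks, measured 96.2 and 94.3 FPKM in etoposide cells, against 79.6 and 89.0 FPKM in DMSO cells. Both etoposide libraries were above both DMSO libraries, with a log2 fold change of 0.18 ± 0.08 and an adjusted p of 0.439 by limma. The gap was 1.07-fold from DMSO replicate 2 and 1.20-fold from DMSO replicate 1. Without DMSO replicate 2 the log2 fold change of 0.26 passed the threshold, with an adjusted p of 0.045, and without DMSO replicate 1 it was 0.10, with an adjusted p of 0.409. Its transcript ENST00000366794 held 97.7% of the mean FPKM. Over the first 1000 bases of that transcript scaled coverage was 87.3 and 83.0 in etoposide cells, against 62.7 and 80.1 in DMSO cells, and over the last 1000 it was 64.3 and 65.3 in etoposide cells, against 61.2 and 58.8 in DMSO cells. As in POLQ, DMSO replicate 1 was the lowest library at the 5′ end and not at the 3′ end.

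PARP2 (ENSG00000129484), the second enzyme of this kind, measured 40.7 and 37.4 FPKM in etoposide cells, against 34.4 and 33.7 FPKM in DMSO cells. Its log2 fold change was 0.20 ± 0.08, with an unadjusted p of 0.046 and an adjusted p of 0.412 by limma. Over the whole gene it was close to this without DMSO replicate 1, at 0.21, and without DMSO replicate 2, at 0.18. Over the last 1000 bases of its main transcript, however, it was 0.14, and 0.063 without DMSO replicate 1. Its DMSO libraries differed by only -0.03 on the log2 scale (replicate 2 minus replicate 1) when all its transcripts were added. Along its main transcript, DMSO replicate 2 was above DMSO replicate 1 in all 15 exons. That transcript measured 28.0 and 26.6 FPKM in etoposide cells, against 21.7 and 24.9 FPKM in DMSO cells. Transcript ENST00000527915, which codes for 531 residues in GENCODE 44, held 69.2% of its FPKM and ENST00000250416, which codes for 583 residues, held 14.0%. ENST00000250416 measured 6.85 and 3.91 FPKM in etoposide cells, against 5.94 and 3.75 FPKM in DMSO cells, a spread within each group larger than the gap between the groups.

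PARP3 (ENSG00000041880) measured 1.31 and 1.40 FPKM in etoposide cells, against 1.18 and 0.989 FPKM in DMSO cells, from an estimated 127 and 161 fragments in etoposide cells and 167 and 138 in DMSO cells. The log2 fold change was 0.31 ± 0.16, with an adjusted p of 0.463 by limma, and it was 0.42 without DMSO replicate 1. The gene rests on few fragments, and they were spread over 4 transcripts with at least 10% of its FPKM each, all coding for 533 residues. Among them, ENST00000398755 measured 0.747 and 0 FPKM in etoposide cells, against 0.476 and 0.615 FPKM in DMSO cells, while ENST00000498510 measured 0.353 and 0.647 FPKM in etoposide cells, against 0 and 0.0777 FPKM in DMSO cells. An FPKM of 0 for 1 of several overlapping forms can come from how StringTie shares out reads, so no fold is given for these forms.

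PARG (ENSG00000227345), which degrades the chains, measured 5.64 and 5.85 FPKM in etoposide cells, against 4.52 and 5.37 FPKM in DMSO cells. Its log2 fold change was 0.22 ± 0.12, with an adjusted p of 0.484 by limma, and 0.10 without DMSO replicate 1. Over the last 1000 bases of its main transcript ENST00000616448, scaled coverage was 4.28 and 3.83 in etoposide cells, against 3.86 and 3.97 in DMSO cells, and the groups overlapped. Those values are the mean of the whole last exon, of 1216 bases. Over the first 1000 bases scaled coverage was 4.02 and 3.72 in etoposide cells, against 2.14 and 3.89 in DMSO cells. There DMSO replicate 1 alone stood low. The near copy PARGP1 measured 3.52 and 3.45 FPKM in etoposide cells, against 2.29 and 3.31 FPKM in DMSO cells, and reads that fit both genes could have been counted for either, so the level of PARG is uncertain to that extent.

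LIG3 (ENSG00000005156), the ligase partner of XRCC1, measured 3.92 and 4.13 FPKM in etoposide cells, against 3.95 and 4.21 FPKM in DMSO cells. The groups overlapped, and the log2 fold change was -0.02 ± 0.11, with an adjusted p of 0.958 by limma, and -0.06 without DMSO replicate 1. Its sign changed with the setting: with TPM, which gave 0.05 where the median of all genes moved to 0.10, with a weighting by estimated fragments, and when etoposide replicate 1 or DMSO replicate 2 was left out. Its main transcript ENST00000378526 is 8382 bases long, close to that of POLQ, and had a first 1000 bases at 5.96 and 6.20 in etoposide cells, against 4.88 and 6.20 in DMSO cells, and a last 1000 bases at 2.12 and 2.23 in etoposide cells, against 2.26 and 2.18 in DMSO cells. The last 1000 bases of LIG3 lie within its last exon, of 5471 bases, so those values are the mean of that whole exon. In LIG3, too, the DMSO replicate 1 library was the lowest at the 5′ end. Its log2 gap to DMSO replicate 2 was 0.34 there, where POLQ had 1.33. Exons of LIG3 share 3754 bases with RFFL on the opposite strand, at 2.42 and 2.33 FPKM in etoposide cells and 2.23 and 2.63 FPKM in DMSO cells, and the deposited command line sets no strand option, so reads of the shared stretch may have been counted for either gene.

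XRCC1 (ENSG00000073050) measured 15.3 and 14.5 FPKM in etoposide cells, against 16.9 and 15.4 FPKM in DMSO cells, the only one of the 8 with both etoposide libraries below both DMSO libraries. The gap between etoposide replicate 1 and DMSO replicate 2 was small against the spread within the groups, and the log2 fold change was -0.12 ± 0.09, with an adjusted p of 0.596 by limma, and -0.05 without DMSO replicate 1. Over the last 1000 bases of its main transcript ENST00000262887 the sign was the other, at 14.8 and 14.7 in etoposide cells, against 15.1 and 13.4 in DMSO cells. APTX (ENSG00000137074) measured 26.5 and 25.8 FPKM in etoposide cells, against 25.8 and 24.1 FPKM in DMSO cells. Its log2 fold change was 0.07 ± 0.08, with an adjusted p of 0.734 by limma, and 0.11 without DMSO replicate 1. Its reads were shared among 56 annotated transcripts, of which only ENST00000379819 held more than 10% of the mean FPKM, at 12.6%, so the readout over the last 1000 bases of 1 transcript says little of APTX or of PARP3.

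**Figure D3:**
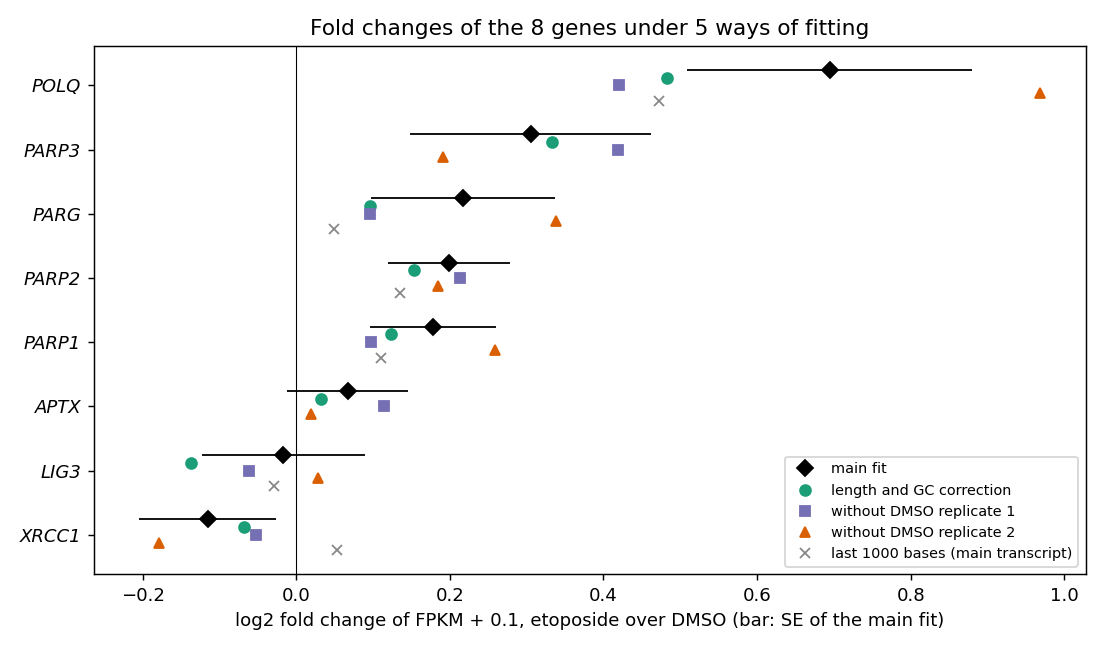
Log2 fold changes of the 8 genes, etoposide over DMSO, under the main fit (diamonds, with SE), the correction for transcript length and GC content, the fits without either DMSO library and the last 1000 bases of the main transcript. The last measure is not drawn for PARP3 and APTX, whose reads are shared among many transcripts. POLQ lies between 0.42 and 0.97 under all 5, while LIG3 and XRCC1 lie on both sides of 0.

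The genes whose pattern over the 4 libraries lay nearest to that of POLQ were ATAD2, USP37, TRIP12, ACER2 and MAP1B, by the distance between centred log2 values among 13558 other genes with a mean of at least 1 FPKM. ATAD2, an ATPase that binds acetylated histones, measured 20.4 and 19.9 FPKM in etoposide cells, against 10.3 and 15.2 FPKM in DMSO cells, at a distance of 0.035. USP37, a deubiquitinase, measured 6.58 and 6.44 FPKM in etoposide cells, against 3.39 and 4.98 FPKM in DMSO cells. All 5 had DMSO replicate 1 as their lowest library, and their main transcripts were of 2773 bases in ACER2, 5547 in ATAD2, 6405 in TRIP12, 8022 in USP37 and 11790 in MAP1B. Their log2 fold changes ran from 0.62 to 0.68, and, once corrected for transcript length and GC content, from 0.42 to 0.56, where POLQ had 0.48. The 5 genes were chosen by this likeness, so their low level in DMSO replicate 1 and their similar fold changes follow from the choice. With 4 libraries the likeness rests on few points and is a description.

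Around POLQ, the enzymes that resect broken ends and the RAD9A-RAD1-HUS1 clamp with its partner RHNO1, which in human cells works with polymerase theta, all had a log2 fold change above 0 (9 of 9). Their median was 0.24, against 0.04 over all genes tested, and 0 passed the test over all genes. EXO1, a nuclease of long-range resection, measured 14.5 and 15.7 FPKM in etoposide cells, against 9.19 and 11.4 FPKM in DMSO cells, with a log2 fold change of 0.55 ± 0.13. RAD1, a subunit of the clamp, measured 24.9 and 24.1 FPKM in etoposide cells, against 19.0 and 20.1 FPKM in DMSO cells, and RBBP8 (CtIP), which starts resection, 23.9 and 24.3 FPKM in etoposide cells, against 16.4 and 20.1 FPKM in DMSO cells. Each of these 3 had an adjusted p of 0.302 to 0.342 by limma. Without DMSO replicate 1 the log2 fold change of EXO1 was 0.40 and that of RBBP8 0.26. The median of the 9 was then 0.18, with 7 above 0. Once corrected for length and GC content it was 0.11, also with 7 above 0. Over the last 1000 bases the median was 0.03, with 6 above 0, or 5 without DMSO replicate 1. Of the relatives of POLQ, the helicase HELQ measured 3.65 and 3.66 FPKM in etoposide cells, against 2.83 and 3.29 FPKM in DMSO cells, a log2 fold change of 0.25, and POLN was below the level filter. HELQ had 0.15 without DMSO replicate 1, and over the last 1000 bases its sign was the other, at -0.20, or -0.73 without DMSO replicate 1.

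Around XRCC1, the enzymes of end processing, gap filling and ligation were mixed, with 6 of 9 above 0 and a median of 0.07, or 0.10 without DMSO replicate 1. The 3 with the smallest p were the replicative ones. PCNA, the sliding clamp of replication, measured 56.8 and 55.9 FPKM in etoposide cells, against 43.6 and 43.8 FPKM in DMSO cells, a log2 fold change of 0.37 ± 0.07. FEN1, the flap nuclease, measured 57.9 and 58.3 FPKM in etoposide cells, against 45.8 and 46.6 FPKM in DMSO cells, and LIG1, the replicative ligase, 11.5 and 11.6 FPKM in etoposide cells, against 10.5 and 10.3 FPKM in DMSO cells. In PCNA and FEN1 the replicates of each group were close and the gap between groups exceeded the spread within each, but their adjusted p were 0.269 and 0.287 by limma. The end-processing enzymes TDP1 and APEX1, named after their values were seen, had log2 fold changes of -0.0028 and -0.08, and the gap-filling polymerase POLB 0.04.

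Among 12 measured genes of the ADP-ribosyltransferase family other than PARP1, PARP2 and PARP3, 11 had a log2 fold change above 0. That held for 56.2% of all genes tested. The median of the 12 was 0.25, with 0 called, and PARP11 and PARP15 were below the level filter. Once corrected for length and GC content the median was 0.14, with 9 above 0. ZC3HAV1 (PARP13), an antiviral RNA-binding protein without transferase activity, measured 8.01 and 8.64 FPKM in etoposide cells, against 5.21 and 6.59 FPKM in DMSO cells, a log2 fold change of 0.50 ± 0.14. TIPARP, a mono-ADP-ribosyltransferase, measured 10.5 and 9.95 FPKM in etoposide cells, against 7.73 and 8.81 FPKM in DMSO cells, and PARP14, another, 14.2 and 15.0 FPKM in etoposide cells, against 9.42 and 12.8 FPKM in DMSO cells. In all 3 DMSO replicate 1 was the lowest library, and without it ZC3HAV1 had 0.33, PARP14 had 0.19 and the median of the 12 was 0.17. Their adjusted p were 0.342 to 0.400 by limma.

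Of 5 enzymes other than PARG that remove ADP-ribose, 4 had a log2 fold change below 0, with a median of -0.12, or -0.14 without DMSO replicate 1, and 0 called. MACROD1 measured 8.06 and 8.41 FPKM in etoposide cells, against 11.6 and 9.06 FPKM in DMSO cells, a log2 fold change of -0.31 ± 0.14, or -0.14 without DMSO replicate 1. MACROD2 measured 3.73 and 4.09 FPKM in etoposide cells, against 4.21 and 4.52 FPKM in DMSO cells, and ADPRH, which takes ADP-ribose off arginine, was the exception at 1.99 and 1.69 FPKM in etoposide cells, against 1.64 and 1.52 FPKM in DMSO cells. The 6 cofactors and readers of ADP-ribose were all above 0, with a median of 0.17. The median was 0.061 without DMSO replicate 1, and 0.030 with 4 of 6 above 0 once corrected for length and GC content. Of these, TIMELESS, a replication fork protein that binds PARP1, measured 24.2 and 23.5 FPKM in etoposide cells, against 16.7 and 18.3 FPKM in DMSO cells, a log2 fold change of 0.44 ± 0.09 with an adjusted p of 0.271 by limma. HPF1, the cofactor that turns PARP1 and PARP2 to serine, measured 24.2 and 24.9 FPKM in etoposide cells, against 19.6 and 21.7 FPKM in DMSO cells, and PARPBP, at a log2 fold change of 0.18 or 0.025 without DMSO replicate 1, measured 10.8 and 10.6 FPKM in etoposide cells, against 8.51 and 10.5 FPKM in DMSO cells.

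The enzymes that make NAD, the substrate of the PARP enzymes, were mixed, with 2 of 7 above 0 and a median of -0.11 with or without DMSO replicate 1. The sign of this median changed with the setting. It was 0.019 with a weighting by estimated fragments and 0.014 over the last 1000 bases, each with 4 of 7 above 0. Over the last 1000 bases without DMSO replicate 1 it was -0.33, with 3 above 0. NAMPT, the rate-limiting enzyme of NAD salvage, measured 16.6 and 18.0 FPKM in etoposide cells, against 12.1 and 12.5 FPKM in DMSO cells, a log2 fold change of 0.49 ± 0.09. NMNAT2, which makes NAD in the cytosol, measured 8.04 and 7.42 FPKM in etoposide cells, against 10.6 and 12.3 FPKM in DMSO cells, a log2 fold change of -0.56 ± 0.11, and NADSYN1 9.70 and 9.76 FPKM in etoposide cells, against 13.0 and 11.4 FPKM in DMSO cells. Neither NAMPT nor NMNAT2 was called, at adjusted p of 0.269 and 0.274 by limma, and both kept their direction without DMSO replicate 1, at 0.46 and -0.67.

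Markers of the cell cycle differed between the groups as well. Of 43 S phase markers, 42 had a log2 fold change above 0, 31 had an unadjusted p under 0.05 in that direction, as 7.06% of all genes tested had, and 0 were called, with a median of 0.31. CDC6, a licensing factor of replication, measured 10.8 and 10.7 FPKM in etoposide cells, against 6.66 and 7.47 FPKM in DMSO cells, a log2 fold change of 0.60 ± 0.10, and DSCC1, a subunit of a clamp loader, 15.2 and 14.5 FPKM in etoposide cells, against 10.4 and 11.3 FPKM in DMSO cells. Of 54 genes that mark G2 and M phase, 41 were below 0 and 13 above, with a median of -0.13. By limma, 21 had an unadjusted p under 0.05 in the lower direction, as 4.85% of all genes tested had. In the higher direction 3 had one, as 7.06% of all genes tested had. The count above 0 was 6 without DMSO replicate 1 and 23 without DMSO replicate 2. The mitotic kinase AURKA measured 43.8 and 42.5 FPKM in etoposide cells, against 63.2 and 60.8 FPKM in DMSO cells, a log2 fold change of -0.52 ± 0.07 with an adjusted p of 0.217 by limma, PSRC1 12.1 and 11.9 FPKM in etoposide cells, against 19.3 and 17.8 FPKM in DMSO cells, and CDC20 57.3 and 56.6 FPKM in etoposide cells, against 87.6 and 78.6 FPKM in DMSO cells. Without DMSO replicate 1 the medians of the S phase and the G2 and M phase markers were 0.23 and -0.22. ATAD2, EXO1, PCNA and FEN1, named above, are themselves among the S phase markers, so these lists are not separate observations. Both groups were released from nocodazole, and in bulk libraries a changed share of cells in a phase and a changed level per cell cannot be told apart, so the part of cell cycle position in the values of POLQ was not tested.

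**Figure D4:**
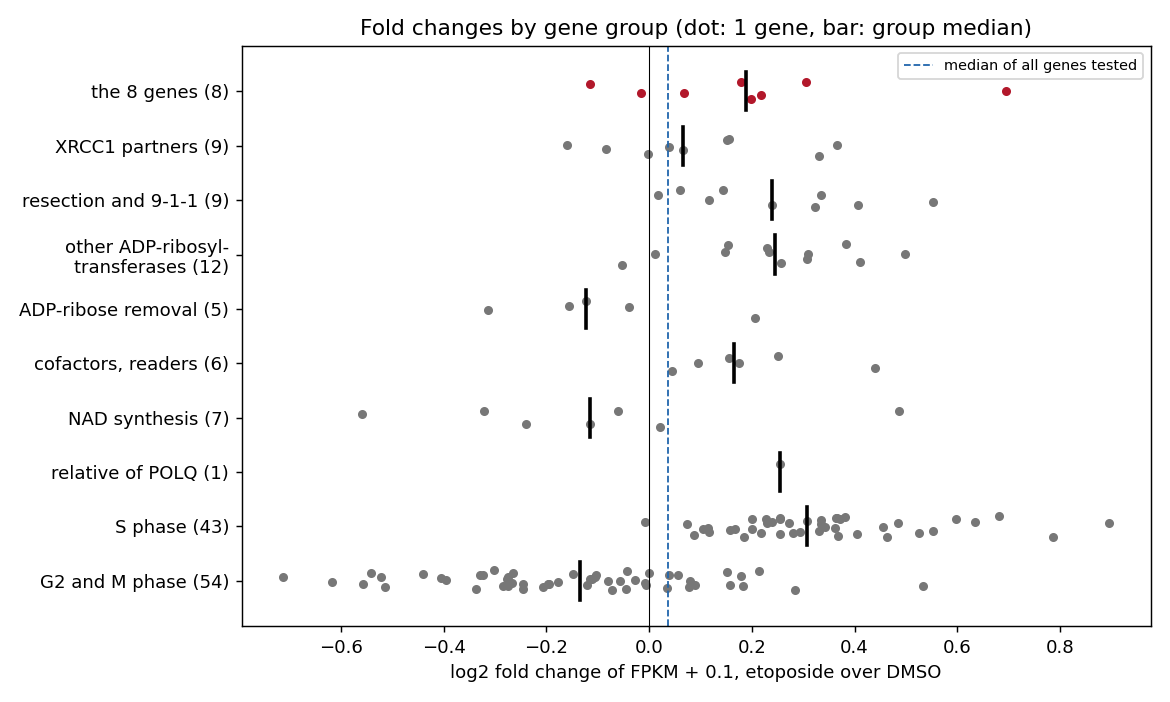
Log2 fold changes, etoposide over DMSO, of the 8 genes (top row) and of the genes around them, with 1 dot for each gene, a bar at each group's median, the number of genes in brackets and a dashed line at the median of all genes tested. The S phase markers have a median of 0.31 and the G2 and M phase markers one of -0.13, and POLQ, at 0.69, is the rightmost dot of its row.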

How the data were processed

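RNA of 4 OVCAR3 libraries (Kapa stranded mRNA kit, NovaSeq, paired reads of 100 bases) was aligned by the authors to GRCh38 with HISAT2, and StringTie 2.1.7 (options -e -B, Ensembl release 104, no strand option) gave the deposited coverage, FPKM and TPM of each transcript. The study's methods for RNA speak of transfected cells and of a mutant, whereas the labels give DMSO and etoposide treated cells, and the groups follow the labels. The submitters' notes also name SAMtools and FastQC. No count table was used here, and the fragments behind a value were estimated from coverage and length.

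The FPKM of a gene's transcripts were added, genes with a mean of at least 0.1 FPKM were kept, and log2(FPKM + 0.1) was fitted in limma 3.58.1 (R 4.3.3) with a trend and robust variance, with no covariate, Benjamini-Hochberg adjustment over all genes and a threshold of 0.05. Fold changes on this scale understate those of low genes. The text names the 8 genes, the 3 genes of smallest p in each of 9 lists, transcripts with at least 10% of a gene's FPKM and the 5 genes nearest to POLQ, and also TDP1, APEX1 and POLB, chosen after their values were seen. The genes and lists were chosen with earlier results of these data known. Of the alternatives, 14 were planned and 2, over the last 1000 bases of the main transcript, were added after the coverage along POLQ was seen. In a transcript whose last exon is longer than 1000 bases, this measure is the mean of that whole exon. Transcript types came from GENCODE 44, promoters from RefSeq, and motifs were searched on both strands.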

Additional observations from a re-analysis of the deposited data

How the results depend on the processing

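The number of genes called was 0 in the main analysis, 1 with estimated fragments and voom, 6 with the correction for transcript length and GC content, 2 over the last 1000 bases and 0 under the other 8 alternatives that kept all libraries; when 1 library was left out it ranged from 5 (without DMSO replicate 1) to 1934 (without DMSO replicate 2), and it was 0 over the last 1000 bases without DMSO replicate 1. Without DMSO replicate 2, DMSO replicate 1 alone stands for the controls and its spread is taken from the etoposide pair. Of 128 values of the 8 genes under alternatives, 116 kept their direction and their side of the threshold and 2 (POLQ at 0.97 and PARP1 at 0.26, without DMSO replicate 2) passed it. LIG3 changed sign with TPM (0.050) and voom (0.028) and in the fits without 1 library, which ran from -0.062 to 0.028. Over the last 1000 bases, without and with leaving out DMSO replicate 1, the sign changed for XRCC1 (0.054 and 0.14), APTX (-0.37 and -0.34) and PARP3 (-1.21 and -1.40). In the last 2 genes a single transcript holds few of the reads. Of 144 list medians under alternatives, 105 moved by less than the spread between replicates. The cause of the other changes was not tested. With the replicate number as a block 0 genes were called, and POLQ had an adjusted p of 0.201 by limma. The deviations of same-numbered libraries correlated at 0.013, and the labels do not say whether such libraries were handled together. The log2 difference between DMSO replicates 2 and 1 correlated across genes with length (Spearman 0.307) and GC content (-0.337), and that between etoposide replicates hardly (0.015 and -0.017). Genes are not independent replicates.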
